A study of Homo sapiens with 4 samples.

Results

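Imprinted genes were followed through 4 human germ cell tumour cell lines. The list names 33 genes that are known to be expressed mainly from a single parental copy, and the members were taken from it by name. Each gene was represented by the probe set annotated to it alone with the highest mean log2 value over the arrays. Of the 33, 30 had such a probe set, and 26 reached the floor of 76.4 intensity units, the median of all values on the arrays, in at least 1 line and were compared. They stand among 14926 genes compared in the same way, from 19775 with a probe set of their own. By the usual parental origin, 18 of the listed genes are paternally expressed, 10 maternally expressed, and 5 (GNAS, GRB10, BLCAP, ZNF331 and INPP5F) depend on isoform or tissue. 13, 8 and 5 of these were compared.

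Expression was measured in total RNA on 1 oligonucleotide array per line. TCam-2 was derived from a testicular seminoma. GCT27 came from a testicular embryonal carcinoma and GCT44 from a testicular yolk sac tumour. NT2D1, a clonal line, came from a lung metastasis of a testicular tumour and is labelled as teratoma. RPMI was the medium of TCam-2 and DMEM that of the rest, all with serum and antibiotics, and no line carried a named transgene or drug treatment. Subtype, individual tumour, medium and array therefore cannot be told apart here. There is no replicate, so every difference is a description of these arrays with no p-value, and the precision is limited by the small number of arrays.

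Genomic imprinting is set in the parental germ lines as DNA methylation at control regions. After fertilization those marks keep 1 parental copy silent, with zinc finger proteins and the maintenance methyltransferase holding them in place. Primordial germ cells, from which these tumours are held to arise, erase the marks before new ones are set, and germ cell tumours have long been studied for imprints that are lost or gained. Several imprinted genes act on growth of the fetus and placenta, in broad terms with paternally expressed genes favouring growth and maternally expressed genes restraining it. The arrays measured the summed RNA of both copies. They did not show which parental copy was read, so a parental class below is the class of the gene in normal tissue and not a measurement.

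The arrays had median intensities of 73.6 to 79.3, and between 49.2% and 50.9% of probe sets lay above the floor, a share near an equal split by construction. The yolk sac tumour array had an ACTB 3'/5' ratio of 4.21 against 2.49 to 2.97 on the others, while its GAPDH ratio of 1.04 lay within the 0.90 to 1.09 of the rest. Markers of the subtypes followed the labels in part. Of 5 seminoma markers, 3 (SOX17, PRAME and TFAP2C) were called higher in TCam-2, whereas PRDM1 had 2481 units there and 1550 in GCT44, and KIT was lowest in TCam-2 (1144) and highest in GCT44 (1771). Of 5 yolk sac markers, 3 (APOA2, FOXA2 and APOA1) were called higher in GCT44, while AFP had 372 units there and GATA4 104, against 70.5 in TCam-2. SOX17 had 3819 units in TCam-2 and lay below the floor elsewhere, and APOA2 had 30689 units in GCT44 against at most 89.2. Of 3 embryonal carcinoma markers (SOX2, DNMT3B and CD24), 0 were called higher in GCT27. SOX2 had 18309 units in GCT27 and 20575 in NT2D1, and CD24 had 29376 and 26123 there and 15790 in TCam-2. NANOG had 13322 units in NT2D1, 22390 in TCam-2, 22428 in GCT27 and 2.29 in GCT44. The teratoma label thus stands on a line with pluripotency genes, though NANOG does not set NT2D1 apart from TCam-2 or GCT27. Of 4 blood cell markers, 3 had a probe set, 0 exceeded the floor on 3 of the arrays, and 1 (CD3E, 88.4 units) did so on that of GCT44. The 4 fibroblast markers summed to 1095 units (TCam-2), 8030 (NT2D1), 6464 (GCT27) and 4784 (GCT44). COL1A1 made up most of each sum, at 792 to 6093 units, and DCN had 69.3 to 95.6. Their part in the results below was not tested.

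The start regions of 6 members are printed from RefSeq (GRCh38.p14). NAP1L5, ZDBF2, PLAGL1, MAGEL2 and ATP10A are shown because large differences between lines are reported for them below, and NDN because it lies next to MAGEL2 and varied least of the paternally expressed genes above the floor in every line. Each is the 250 bases before a transcription start, 5′ to 3′ on the gene's strand, with every CpG, the dinucleotide that carries DNA methylation, in capitals. Where a gene had several starts, the window with the most CpGs was taken.
NAP1L5, chr4:88697830-88698079, minus strand: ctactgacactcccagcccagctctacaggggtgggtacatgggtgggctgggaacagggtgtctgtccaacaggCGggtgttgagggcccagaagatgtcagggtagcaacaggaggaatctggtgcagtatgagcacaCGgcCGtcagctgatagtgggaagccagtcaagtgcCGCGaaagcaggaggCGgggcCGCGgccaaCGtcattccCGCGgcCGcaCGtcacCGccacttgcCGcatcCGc
ZDBF2, chr2:206274760-206275009, plus strand: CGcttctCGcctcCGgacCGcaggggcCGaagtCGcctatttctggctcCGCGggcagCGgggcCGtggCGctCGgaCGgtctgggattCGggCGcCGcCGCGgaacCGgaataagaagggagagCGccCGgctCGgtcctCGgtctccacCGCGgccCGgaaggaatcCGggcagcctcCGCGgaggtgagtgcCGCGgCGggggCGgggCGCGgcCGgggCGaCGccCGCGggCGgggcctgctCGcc
PLAGL1, chr6:144008260-144008509, minus strand: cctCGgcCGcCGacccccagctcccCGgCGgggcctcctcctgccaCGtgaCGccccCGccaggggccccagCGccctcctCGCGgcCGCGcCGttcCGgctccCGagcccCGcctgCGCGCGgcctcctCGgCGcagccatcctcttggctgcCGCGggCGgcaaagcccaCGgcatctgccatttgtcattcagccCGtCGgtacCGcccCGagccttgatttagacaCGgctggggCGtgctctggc
MAGEL2, chr15:23647868-23648117, minus strand: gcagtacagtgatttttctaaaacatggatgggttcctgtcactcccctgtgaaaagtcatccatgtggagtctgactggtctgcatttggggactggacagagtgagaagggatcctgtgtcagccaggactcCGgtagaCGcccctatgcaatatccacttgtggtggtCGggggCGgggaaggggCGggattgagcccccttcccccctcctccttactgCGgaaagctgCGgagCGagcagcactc
NDN, chr15:23687306-23687555, minus strand: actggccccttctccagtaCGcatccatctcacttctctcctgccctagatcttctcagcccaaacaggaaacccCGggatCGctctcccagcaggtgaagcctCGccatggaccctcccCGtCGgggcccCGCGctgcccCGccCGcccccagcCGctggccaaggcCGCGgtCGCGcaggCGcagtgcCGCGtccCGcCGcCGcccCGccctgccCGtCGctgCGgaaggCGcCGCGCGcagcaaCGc
ATP10A, chr15:25863328-25863577, minus strand: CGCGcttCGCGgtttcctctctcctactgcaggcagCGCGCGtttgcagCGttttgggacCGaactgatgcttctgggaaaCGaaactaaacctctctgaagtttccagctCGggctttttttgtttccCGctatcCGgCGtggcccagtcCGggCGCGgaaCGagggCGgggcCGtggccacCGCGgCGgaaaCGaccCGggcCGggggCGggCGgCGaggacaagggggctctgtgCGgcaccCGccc

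These windows held between 8 CpGs (MAGEL2) and 42 (ZDBF2). The median over 35116 windows of all genes was 11. That is not a like comparison, since the members' windows were those with the most CpGs where a gene had several starts. NAP1L5 had 16, NDN 30, ATP10A 31 and PLAGL1 32, the last at 1 of its 5 starts, where the poorest start had 1. The hexamer TGCCGC, the core of the motif bound by the imprint-keeping protein ZFP57 when methylated, was searched on both strands (as TGCCGC or GCGGCA). It was found at 2 sites in NAP1L5, 2 in PLAGL1, 1 each in ZDBF2, NDN and ATP10A, and at none in MAGEL2. Among the 22 members with a window, 10 held it, and 12.7% of all windows did. The members' windows were picked for their CpGs and the hexamer itself holds a CpG, so the 2 shares are not a comparison. Windows for PEG3, PEG10, PHLDA2, CDKN1C, DLK1, SGCE, DLX5, KCNQ1, KCNQ1OT1, NNAT and ZIM2 are not shown.

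The compared members varied widely between the lines. The highest line exceeded the lowest by at least 4-fold for 14 of the 26 members, against 20.5% of all genes compared, and the median span over the 4 lines was 2.04 on the log2 scale, against 1.09 over all genes. Members were chosen with earlier results of these data known. A second list of imprinted genes and genes near imprinted clusters, given below, had a median span of 0.98 over 17 compared, so the width is not shown for imprinted genes at large. A call in a line required a gap of at least 4-fold (2 on the log2 scale) to the nearest of the other 3. This rule called 6 members, against 7.10% of all genes. The RNA came from whole cultures, so a smaller share of expressing cells and less RNA per cell cannot be told apart. ATP10A was higher in TCam-2 (1 member, against 1.49% of all genes) and DLX5 was higher in NT2D1 (1 member, against 0.523%). NAP1L5 was lower in GCT27 (1 member, against 0.322%), and PHLDA2, ZDBF2 and CDKN1C were lower in GCT44 (3 members, against 1.69%). No member was called lower in TCam-2 (0.744% of all genes) or NT2D1 (0.241%), or higher in GCT27 (0.603%) or GCT44 (1.70%). A further 4 members, PLAGL1, INPP5F, MAGEL2 and SLC22A18, separated 2 lines from the other 2 by at least 4-fold, which 1.98% of all genes did. That rule was added after the values were seen. By split, it took INPP5F and SLC22A18 with TCam-2 and GCT27 high (0.422% of all genes), MAGEL2 with NT2D1 and GCT27 high (0.703%) and PLAGL1 with NT2D1 and GCT44 high (0.228%). It took 0 members for the pairs TCam-2 and NT2D1 (0.188%), TCam-2 and GCT44 (0.268%) or GCT27 and GCT44 (0.174%). The other 16 members met neither rule. With a line left out the rule is easier to meet for every gene, and the shares of all genes were not computed for that. The counts that follow are therefore not read as a trait of the members. Leaving out NT2D1 raised the number lower in GCT44 to 6, and leaving out TCam-2 raised the number lower in GCT27 to 3. The number higher in NT2D1 was 3 without GCT44 and 2 without GCT27, and the number higher in TCam-2 was 3 without GCT27 and 2 without NT2D1. Without one of the lines, counts of 0 became 2 at most: higher in GCT27 without TCam-2 or without NT2D1, lower in NT2D1 without GCT44, and 1 each for lower in TCam-2 without GCT27 or GCT44 and higher in GCT44 without NT2D1.

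**Figure D1:**
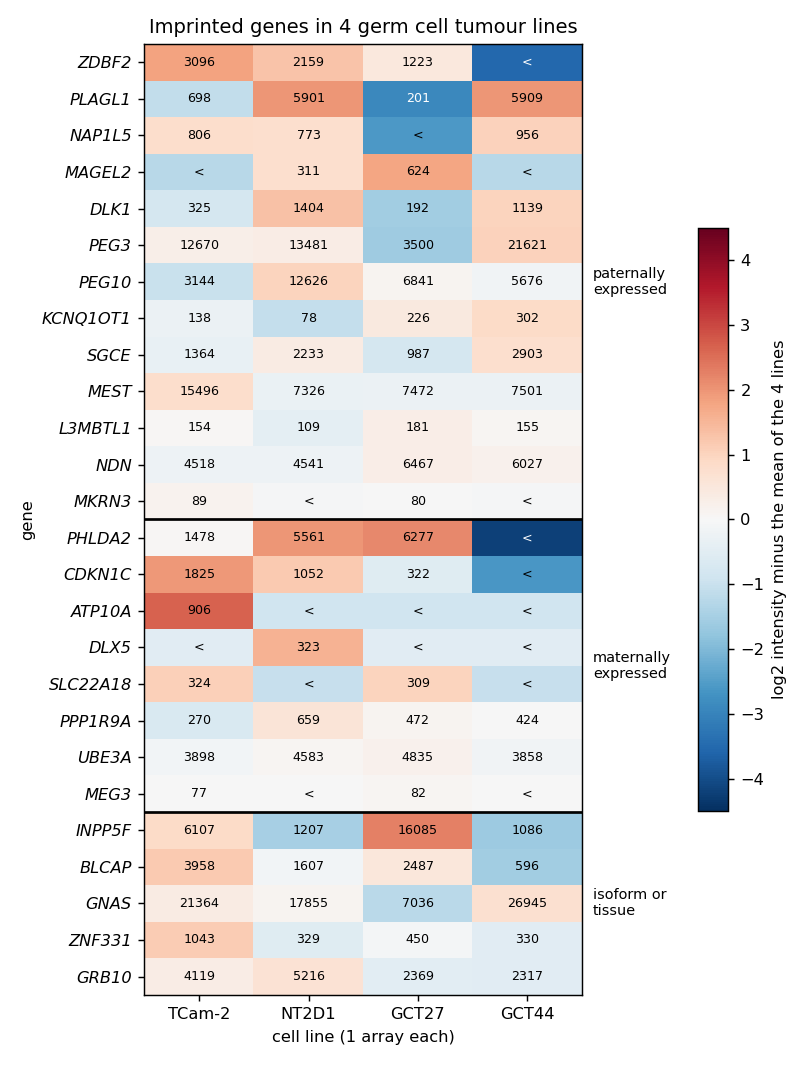
Each row is a compared imprinted gene and each column a cell line (1 array each); the colour is log2 intensity, floored at 76.4 units, minus the mean of the 4 lines, and the number is the intensity (a < sign marks a value below the floor). PHLDA2, ZDBF2 and CDKN1C are deep blue in GCT44, while PEG3, PLAGL1, DLK1 and NAP1L5 are blue in GCT27.

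Line against line, both of the largest counts had GCT44 as the lower line. At 4-fold, 7 of the 26 were higher in GCT27 than in GCT44, against 5.30% of all genes, and 4 were lower (4.15%). Likewise 7 were higher in TCam-2 than in GCT44 (5.70%), where PLAGL1 was the 1 lower member (4.38%). Between NT2D1 and GCT44, 5 were higher in NT2D1 (4.76%) and 0 in GCT44 (3.77%). NT2D1 exceeded TCam-2 for 5 members, PEG10, MAGEL2, DLK1, PLAGL1 and DLX5 (4.05%), and TCam-2 exceeded NT2D1 for 3, SLC22A18, ATP10A and INPP5F (4.21%). NT2D1 exceeded GCT27 for 4 members, DLK1, PLAGL1, NAP1L5 and DLX5 (2.09%), and GCT27 exceeded NT2D1 for SLC22A18 and INPP5F (2 members, 2.58%). TCam-2 exceeded GCT27 for NAP1L5, CDKN1C and ATP10A (3 members, 3.58%), and GCT27 exceeded TCam-2 for MAGEL2 and PHLDA2 (2 members, 3.79%). Pairs that include a line share its array.

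Among the paternally expressed transcription factors, PEG3, a zinc finger protein and the best known member of its cluster, was abundant in every line. It had 12670 units (TCam-2), 13481 (NT2D1), 3500 (GCT27) and 21621 (GCT44). GCT27 was the low line, 3.62-fold below the next and so just outside the 4-fold rule, and 6.18-fold below GCT44. The second probe set of PEG3 had 4701, 3908, 993 and 8305 units in the same order, with GCT27 3.93-fold below the next. PEG3-AS1, the antisense RNA beside it, had 616, 467, 265 and 1591 units and was also lowest in GCT27 and highest in GCT44. A further probe set, listed under both ZIM2 and PEG3, had 67.0 to 136 units, so ZIM2 was not measured on its own.

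PLAGL1, a zinc finger factor that restrains proliferation, split the lines in pairs. It had 698 units in TCam-2 and 201 in GCT27, against 5901 in NT2D1 and 5909 in GCT44. The lower of the high pair exceeded the higher of the low pair 8.45-fold. All 3 of its probe sets were bright and gave the same order of the pairs, with a highest-to-lowest ratio between 12.3 and 29.4. HYMAI, a non-coding RNA from the same imprinted start, had 53.7, 96.5, 12.8 and 195 units in TCam-2, NT2D1, GCT27 and GCT44, so it lay above the floor only where PLAGL1 was high. Its 3 compared neighbours on the side away from HYMAI were not lowest in GCT27, which had 2483 units for FUCA2, 3129 for PHACTR2 and 3125 for LTV1.

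NAP1L5, a member of the nucleosome assembly protein family, had 806 units in TCam-2, 773 in NT2D1 and 956 in GCT44, and 9.13 in GCT27. The 3 expressing lines lay within 1.24-fold of each other, and GCT27 lay below the floor, at least 10.1-fold under the lowest of them. The second probe set had 575, 530, 23.7 and 659 units and placed GCT27 at least 6.94-fold below. None of the 6 nearest compared genes, 3 on each side, was called lower in GCT27, and HERC5 beside it had its highest value there, at 6055 units against at most 1855.

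ZDBF2, a zinc finger gene, had 3096 units (TCam-2), 2159 (NT2D1), 1223 (GCT27) and 58.3 (GCT44). GCT44 was below the floor and at least 16.0-fold under the next line. It has a single probe set of its own, so no second one can be set beside it. None of its 6 nearest compared genes was called lower in GCT44. ADAM23 (161, 379, 255 and 110 units) and FASTKD2 (1947, 2472, 1673 and 1630 units) were lowest there without meeting the rule. On the other side, CMKLR2-AS (526, 14.7, 2204 and 27.3 units) lay below the floor in NT2D1 and GCT44. CMKLR2 (172, 1044, 70.4 and 108 units) was lowest in GCT27.

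**Figure D2:**
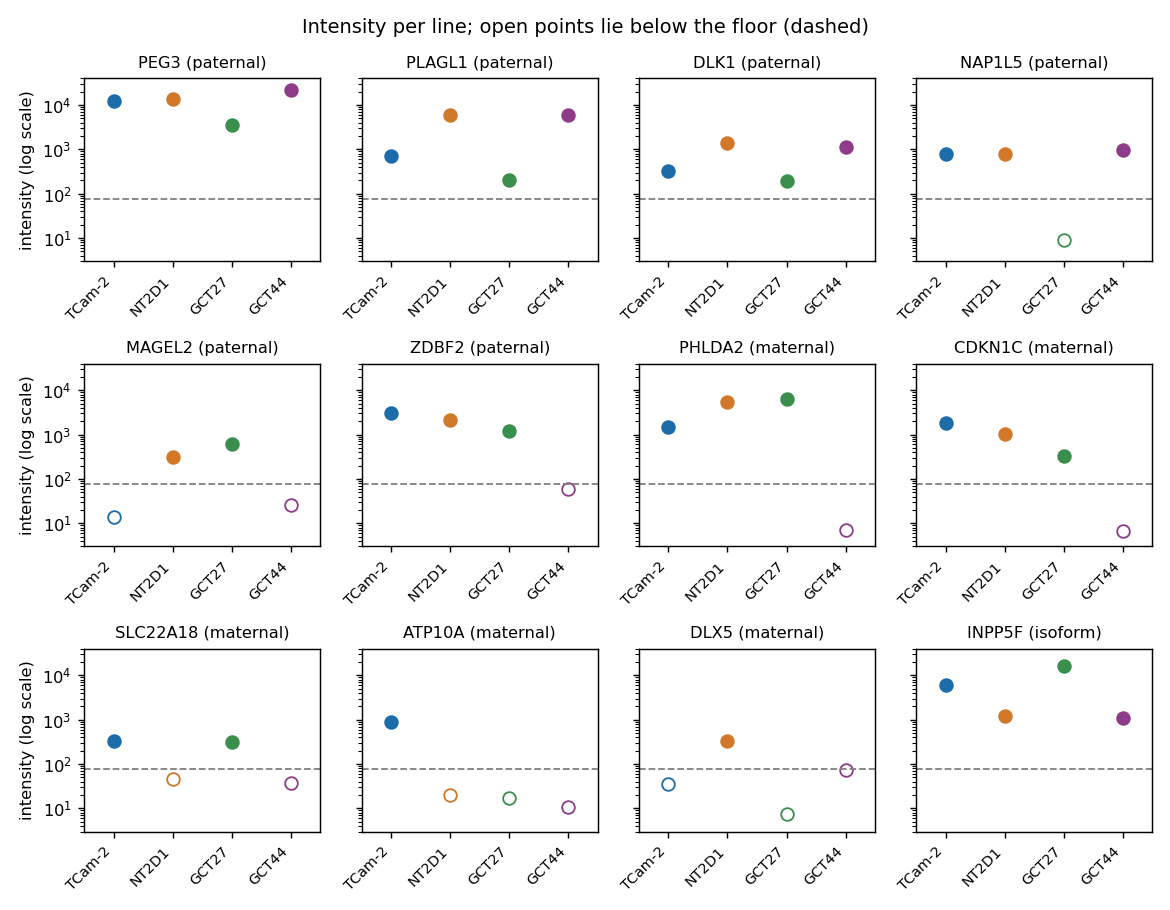
Intensity on a log scale for 12 imprinted genes in each line (1 array each); the dashed line is the floor of 76.4 units and open points lie below it. NAP1L5 is open only in GCT27, PHLDA2, CDKN1C and ZDBF2 only in GCT44, and ATP10A is filled only in TCam-2.

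DLK1, a membrane protein of the Notch ligand family, had 325 units (TCam-2), 1404 (NT2D1), 192 (GCT27) and 1139 (GCT44). The split was that of PLAGL1, but the gap between the pairs was 3.50-fold and did not meet the rule. MEG3, the maternally expressed RNA of the same cluster, was at the floor in all lines, with 56.6 to 82.2 units for the probe set used. Of its 10 probe sets none exceeded 82.2 units. DIO3, a thyroid hormone deiodinase at the far end of that cluster and not on the list, had 121, 76.1, 11.2 and 819 units, and was 6.75-fold higher in GCT44. RTL1 had no probe set assigned here and was not analysed.

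Members of the SNRPN region on chromosome 15 did not move together. NDN, which encodes necdin of the MAGE family, had 4518, 4541, 6467 and 6027 units in TCam-2, NT2D1, GCT27 and GCT44, a span of 1.43-fold. Its neighbour MAGEL2, a MAGE family regulator of ubiquitin ligases, had 311 units in NT2D1 and 624 in GCT27 while TCam-2 (14.1) and GCT44 (25.5) stayed under the floor. The expressing pair was at least 4.07-fold above the other pair, which is close to the rule. MKRN3, a ring finger protein that delays puberty, stayed near the floor at 45.2 to 89.1 units. The single probe set of SNRPN itself was below the floor on all arrays, at most 30.6 units.

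Probe sets shared between SNRPN and other genes of its long transcript were bright. The brightest, listed under SNURF and SNRPN, had 1345 units (TCam-2), against 12057 (NT2D1), 14931 (GCT27) and 7563 (GCT44), so TCam-2 was 5.62-fold below the next line. Of the 6 shared probe sets that reached 306 units in some line, which is 4-fold over the floor, all had TCam-2 as the lowest line. Their margins in TCam-2 were 1.98-fold to 7.87-fold, bounds where TCam-2 lay below the floor. PWAR6, a non-coding RNA downstream of SNRPN, had 227 units in TCam-2 against 2750, 4154 and 1535, and PWAR5 had 39.4 against 246, 485 and 249. The shared probe sets cannot be assigned to a single gene and are not counted among the members. UBE3A, the ubiquitin ligase at the end of the same region that is maternally expressed in neurons, had 3898, 4583, 4835 and 3858 units and spanned 1.25-fold. ATP10A, a phospholipid flippase next to UBE3A, had 906 units in TCam-2 and at most 20.1 elsewhere, at least 11.9-fold higher. Only this 1 of its 3 probe sets was bright; another had 64.3 units in TCam-2, below the floor, and 120 in GCT44.

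In the KCNQ1OT1 region on chromosome 11, PHLDA2 and CDKN1C were called lower in GCT44. PHLDA2, a pleckstrin homology protein that restrains placental growth, had 1478 units (TCam-2), 5561 (NT2D1), 6277 (GCT27) and 6.96 (GCT44). GCT44 was at least 19.3-fold below TCam-2, which itself lay 4.25-fold below GCT27. Its other probe sets had at most 99.7 units in any line, too faint to show such a difference. CDKN1C, an inhibitor of cyclin-dependent kinases, had 1825, 1052, 322 and 6.65 units in the same order, at least 4.22-fold lower in GCT44 than in GCT27. All 4 of its bright probe sets had GCT44 below the floor, GCT27 next and TCam-2 on top, but GCT27 was faint on the other 3, at 91.1 to 129 units. The margin of GCT44 there was at most 1.69-fold, so the 4-fold call rests on a single probe set. SLC22A18, a transporter listed under its current symbol SLC67A1, had 324 units in TCam-2 and 309 in GCT27 and lay below the floor in NT2D1 (46.5) and GCT44 (37.2), at least 4.04-fold apart. These genes are maternally expressed and are silenced on the paternal copy by the RNA KCNQ1OT1.

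KCNQ1OT1 had 138 units (TCam-2), 78.2 (NT2D1), 226 (GCT27) and 302 (GCT44). It was highest in GCT44, 1.34-fold above GCT27, and its other 4 probe sets had at most 100 units. KCNQ1, within which it lies, was below the floor throughout, with 71.5 units or less for the probe set used. The nearest compared genes on the far side of PHLDA2 were also lowest in GCT44 but were not called there. NAP1L4 had 949 units against 1614 to 2552, CARS1 4455 against 4699 to 8857, and OSBPL5 46.2, below the floor, against 95.7 to 253. GCT44 is also the array with the highest ACTB 3'/5' ratio, 4.21, and the part of that in these values was not tested.

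H19, the maternally expressed RNA beside IGF2, was represented only by probe sets that also list MIR675, the microRNA within it, and so was not compared as a member. The brighter of them had 6468 units (TCam-2), against 198 (NT2D1), 135 (GCT27) and 308 (GCT44), 21.0-fold above the next line. The other had 1720, 129, 104 and 275 units, 6.26-fold above. Both were high in TCam-2 alone and above the floor in every line. The probe sets of IGF2 also list another gene and are not analysed here.

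**Figure D3:**
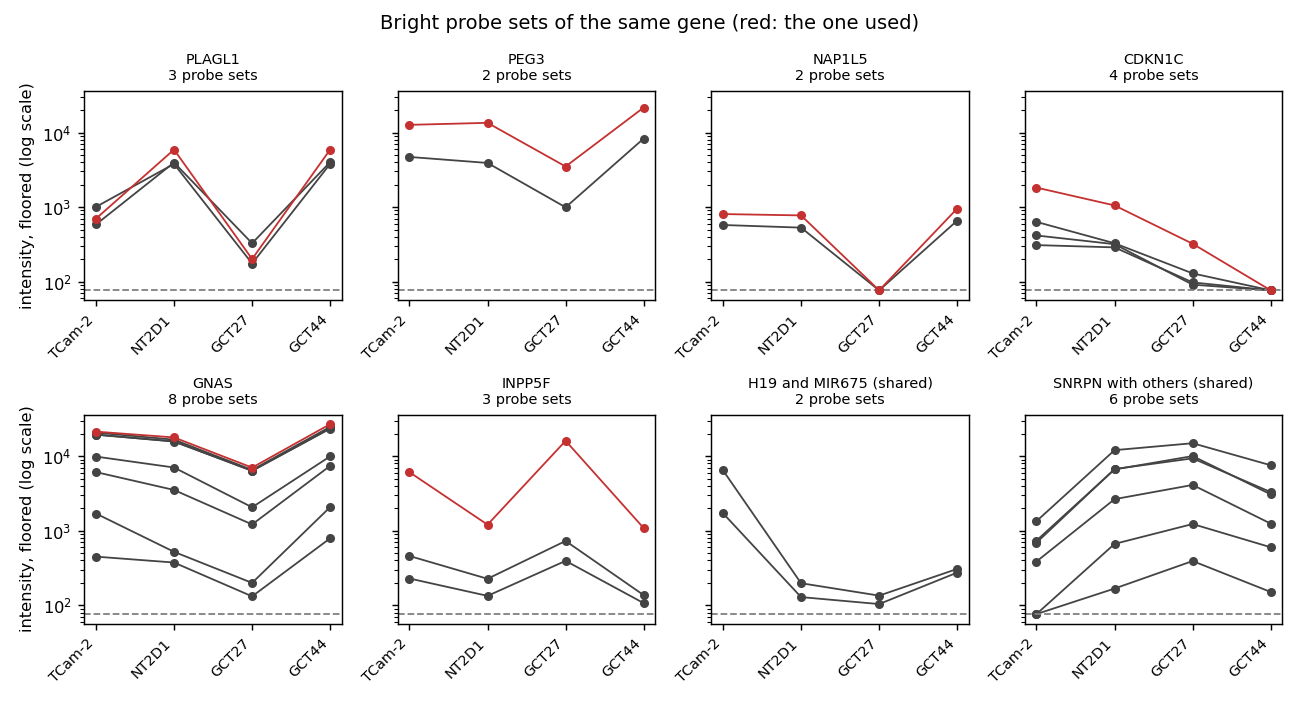
Lines join the floored intensity (log scale) of a probe set across the cell lines (1 array each), for probe sets that reach 306 units in some line; the red line is the probe set used for the gene, and the last 2 panels show probe sets shared with other genes. All 3 PLAGL1 probe sets dip in TCam-2 and GCT27, and the 6 SNRPN probe sets are lowest in TCam-2.

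Of the other paternally expressed members, PEG10, a protein derived from a retrotransposon, had 3144, 12626, 6841 and 5676 units in TCam-2, NT2D1, GCT27 and GCT44. Its span was 4.02-fold and its second probe set gave 3.38-fold with the same highest and lowest line. SGCE, the epsilon-sarcoglycan next to PEG10, had 1364, 2233, 987 and 2903 units, with GCT27 lowest and GCT44 highest as for PEG3. MEST, a hydrolase, had 15496 units in TCam-2 and 7326 to 7501 in the others, which were nearly equal, a 2.07-fold margin. L3MBTL1, a chromatin reader, ranged from 109 to 181 units. DIRAS3, a small GTPase, and NNAT, a membrane proteolipid, were below the floor on all arrays, at most 67.6 and 19.4 units.

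Of the other maternally expressed members, DLX5, a homeobox factor whose imprinting in humans is disputed, had 323 units in NT2D1 and lay below the floor elsewhere, highest at 71.9 in GCT44, at least 4.22-fold higher. Its neighbour DLX6 had 1658 units in NT2D1, 710 in GCT44 and at most 30.2 in the rest. PPP1R9A, a cytoskeletal scaffold beside PEG10, had 270, 659, 472 and 424 units.

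Among the genes whose parental origin depends on isoform or tissue, INPP5F, a phosphoinositide phosphatase, had 6107 units in TCam-2 and 16085 in GCT27 against 1207 in NT2D1 and 1086 in GCT44. The gap between the pairs was 5.06-fold, and all 3 probe sets had the same highest and lowest line. The other 2 had 229, 134, 395 and 107 units, and 459, 227, 730 and 137, in TCam-2, NT2D1, GCT27 and GCT44. Neither separated the pairs by 4-fold, so the split rests on a single probe set. INPP5F and SLC22A18 were the 2 members of the split that put TCam-2 and GCT27 above NT2D1 and GCT44. GNAS, the stimulatory G protein alpha subunit, had 21364, 17855, 7036 and 26945 units. All 8 of its bright probe sets had GCT27 lowest and GCT44 highest, with spans from 3.69-fold to 10.4-fold, although most are of a kind that may also match other sequences. The order was not particular to GNAS. NELFCD, CTSZ and ATP5F1E, the next compared genes on one side, also had GCT27 lowest and GCT44 highest. STX16, NPEPL1 and GNAS-AS1 on the other side were not lowest in GCT27. BLCAP, a small membrane protein, had 3958, 1607, 2487 and 596 units, with GCT44 2.70-fold below the next. Its neighbours RPN2, MANBAL, SRC, CTNNBL1 and TTI1 were also lowest in GCT44, by smaller margins and without a call. VSTM2L lay above the floor only in GCT27. ZNF331, a zinc finger gene, had 1043 units in TCam-2 and 329 to 450 in the others. GRB10, an adaptor of the insulin receptor, had 4119, 5216, 2369 and 2317 units for the probe set used, but its 2 other bright probe sets were highest in GCT44, at 723 and 2077 units, so its order of lines is unsettled.

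Paternally and maternally expressed genes were then compared as differences between lines, since the levels of different probe sets are not on a common scale. In GCT44 all 8 compared maternally expressed members lay below the mean of the other 3 lines, as did 8035 of the 14926 genes, with a median of -0.94 on the log2 scale, against -0.04 over all genes. MEG3 (-0.04), PPP1R9A (-0.05) and UBE3A (-0.20) were close to 0 there, and ATP10A (-1.19) and DLX5 (-0.69) were compared only because they are high in a single other line. Of the 13 paternally expressed members, 8 lay above and 5 below it there, with a median of 0.24, which turned to -0.15 under scaling to the hybridization controls (RNAs added to each sample before hybridization), where the median of all genes was -0.31 and that of the maternally expressed members -0.95. Only 2 of the 8 maternally expressed members, UBE3A and PPP1R9A, exceeded the floor in GCT44, against 7 (TCam-2), 5 (NT2D1) and 6 (GCT27). Of the 13 paternally expressed members 10 did so in GCT44 and 12 in each other line, and of all genes compared 80.5% did in GCT44. The count of 2 maternally expressed members in GCT44 is partly set by the filter. ATP10A and DLX5 passed it only through a single other line, and SLC22A18 only through TCam-2 and GCT27. MEG3 passed it only at 77.4 units in TCam-2 and 82.2 in GCT27. The differences from the mean of the other lines in GCT44 were -5.61 for PHLDA2, -3.48 for CDKN1C and -1.37 for SLC22A18. SLC22A18 had the same difference in NT2D1.

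In GCT27 the medians of the classes lay close together, and the paternally expressed members were spread widely. A line counted as lowest only where no other line tied with it after flooring. MEG3, SLC22A18, ATP10A and DLX5 of the maternally expressed members had several lines tied at the floor. So did MAGEL2 and MKRN3 of the paternally expressed, and no line could be lowest for any of these. GCT27 was the lowest line for 5 of the 13 paternally expressed members, PEG3, PLAGL1, DLK1, SGCE and NAP1L5, and for 0 of the 8 maternally expressed members, against 17.7% of all genes, counts too small and too bound by the floor to show that the classes differ. Their differences from the mean of the other lines were -2.14 for PEG3, -3.85 for PLAGL1, -2.07 for DLK1, -1.07 for SGCE and -3.46 for NAP1L5. Of the other 8, 6 lay above the mean of the other lines, and GCT27 was the highest line for MAGEL2, NDN and L3MBTL1, with MAGEL2 at 2.35. The median over the 13 was -0.01, against -0.02 over all genes (0.25 against 0.30 with that scaling), and that of the maternally expressed members was 0.13 (0.43 with that scaling). GCT44 was the highest line for 5 of the 13 paternally expressed members (PEG3, PLAGL1, KCNQ1OT1, SGCE and NAP1L5) and for 0 of the 8 maternally expressed ones, against 26.9% of all genes. For PLAGL1 that order means little, with 5909 units in GCT44 and 5901 in NT2D1. Members below the floor in GCT44 were compared only through other lines, so GCT44 could not be their highest line. These were all maternally expressed members but UBE3A and PPP1R9A, and MAGEL2, MKRN3 and ZDBF2 among the paternally expressed. The 2 counts are therefore partly set by the filter.

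In TCam-2 the medians were -0.31 for paternally and 0.04 for maternally expressed members, against -0.06 over all genes. In NT2D1 they were 0.50 and 0.47, against -0.03. The 4-fold rule called 2 of the 13 paternally and 4 of the 8 maternally expressed members in some line, and 0 of the 5 whose origin depends on isoform or tissue. Of the 4, only PHLDA2 and CDKN1C remained when members imprinted mainly in single tissues, or disputed in humans, were left out. With the median over all probe sets of a gene 1 maternally expressed member was called, and without probe sets that match several transcripts 2 were. Each line is compared with the mean of the rest, so these comparisons share arrays and are not independent.

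**Figure D4:**
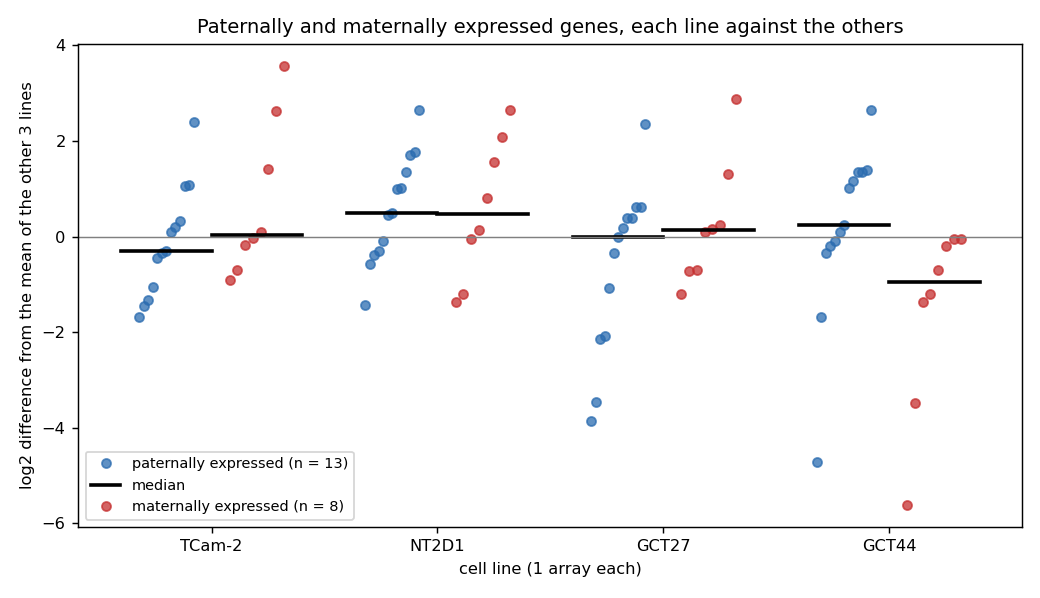
Points are compared imprinted genes, 13 paternally and 8 maternally expressed, and the vertical axis is the log2 difference of each line (1 array each) from the mean of the other 3 after flooring; bars are medians. All 8 maternally expressed genes lie below 0 in GCT44, with a median of -0.94, while in GCT27 the points below -2 are paternally expressed genes.

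Genes that write, keep or erase imprints were read from a separate list of 23, of which 18 were compared. 3 were called, against 7.10% of all genes, a count too small to compare. DNMT3L, the partner of the de novo methyltransferases, was 11.0-fold higher in TCam-2, with 2083 units against 189 in GCT27 and values below the floor in the other lines. NLRP7, a maternal-effect gene mutated in recurrent hydatidiform mole, had 5103 units (TCam-2), 60.6 (NT2D1), 947 (GCT27) and 86.7 (GCT44), 5.39-fold higher in TCam-2. TET2, an enzyme that oxidizes methylcytosine, had 72.4 units in GCT27 against 1048, 340 and 574, at least 4.45-fold lower. The maintenance methyltransferase DNMT1 had 2171, 5532, 4335 and 3283 units in TCam-2, NT2D1, GCT27 and GCT44, and its partner UHRF1 1825, 7482, 2969 and 10173. ZFP57, which keeps imprints, was below the floor on all arrays, at most 22.9 units, while ZNF445, a second such factor, had 596 to 1185 and their corepressor TRIM28 749 to 1895.

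A second list held 24 further imprinted genes or genes near imprinted clusters, of which 17 were compared and 3 called, against 7.10% of all genes. RB1, the retinoblastoma tumour suppressor, had 368 units in TCam-2 against 1817 to 3432, 4.94-fold lower. TFPI2, a protease inhibitor near PEG10, had 3982 units in GCT27 against 846 in NT2D1, 87.0 in GCT44 and 58.2 in TCam-2, 4.70-fold higher. DIO3 was the third, given above. IGF2R, a receptor that clears IGF2, had 2179 to 3529 units. The median span over the 4 lines was 0.98 on the log2 scale for this list and 1.36 for the imprint control list, against 2.04 for the 26 members and 1.09 for all genes. The lists and members were chosen with earlier results known, so these medians and counts are descriptions.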

How the data were processed

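Total RNA of 4 cell lines was labelled with biotin and hybridized to 1 array each, per the labels. The authors deposited intensity values for 54675 probe sets. They are on a linear scale with a common trimmed mean of 499.9 on every array (2% removed from each end), whereas the submitters' processing notes name RMA, which usually gives log2 values; the reason is not given in the sources used here. Values were taken to log2 here, and values under 76.4 units, the median of all values, were set to it, so a fold against such a value is a lower bound. Symbols came from the platform annotation (41097 probe sets with a single gene, 1801 with several, 11777 not listed), updated through gene identifiers; 1 member matched through an older symbol. Genes were compared when their highest value reached the floor. The size rule and its functions were tested on simulated data in which every gene was first set well above the floor. Values at the floor, where many calls above have their lower side, were not covered by that test. All members are accounted for, those called in a line or separating pairs of lines are given with all values, and from the further lists the called genes are named, with a few uncalled genes chosen after their values were seen. Members and lists were chosen with earlier results of these data known. Neighbours are the 3 compared genes on each side in the RefSeq gene order, used without coordinates because the files name no build. Alternatives were another choice of probe sets, floor, scaling, threshold or reference, another assignment of members to classes, and leaving out each line; scaling to 18 hybridization control probe sets was added after seeing the data. Python 3.11.15 with pandas 2.3.3 was used.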

Additional observations from a re-analysis of the deposited data

How the results depend on the processing

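The directions of the 6 calls held under the alternatives run wherever a margin was above 0, and no margin changed sign. ZDBF2 in GCT44 kept its call under all 11 alternatives, with log2 margins from -4.82 to -2.28. The call of PHLDA2 ended with the median over its probe sets (0.00) and without probe sets that match several transcripts (0.00), since its other probe sets are faint. That of CDKN1C ended with the median over probe sets (-0.35) and with a floor at the 70th percentile, 252 units (-0.35). The higher floor also ended the calls of DLX5 (0.36), ATP10A (1.85) and NAP1L5 (-1.62). ATP10A was no longer compared with the median over its probe sets, nor DLX5 without probe sets that match several transcripts. Their calls were lost there as well. PEG3 in GCT27, at -1.86, passed against the mean of the other lines (-2.14) and lay between -1.97 and -1.61 under the rest.

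Counts of members were small and moved with the settings. The share of all genes called was not computed for these settings. A larger count under a looser rule is therefore not read as a result about the members. With the higher floor 0 were higher in TCam-2, 0 higher in NT2D1, 0 lower in GCT27, 1 paternally and 1 maternally expressed member was called, and 2 members separated 2 lines from 2. With the median over probe sets 0 were higher in TCam-2, 1 lower in GCT44 and 1 maternally expressed member was called. Without probe sets that match several transcripts 0 were higher in NT2D1 and 2 maternally expressed members were called, and without members imprinted in single tissues or disputed 2 were. With no floor 2 were lower in GCT27. Against the mean of the other lines 3 were higher for TCam-2, 3 for NT2D1, 3 for GCT27 and 1 for GCT44, 4 were lower in GCT27 and 5 in GCT44, and 6 paternally expressed members were called. At a threshold of 1, 3 were higher in TCam-2 and 2 in GCT27, 4 were lower in GCT27, 6 paternally expressed members were called and 7 separated 2 lines from 2. Leaving out each other line gave 1 to 3 higher for TCam-2, 1 to 3 for NT2D1, 0 to 2 for GCT27 and 0 to 1 for GCT44. It gave 0 to 1 lower for TCam-2, 0 to 2 for NT2D1, 1 to 3 for GCT27 and 3 to 6 for GCT44, and 3 to 5 paternally and 3 to 5 maternally expressed members. Scaling to the hybridization controls shifted the median of all genes by 0.32 in GCT27 and -0.26 in GCT44. In GCT44 all 8 maternally expressed members stayed below the mean of the other lines under each of the 3 scalings, with medians of -0.95, -0.94 and -0.95. For ATP10A and DLX5, compared only because they are high in a single other line, this was fixed by the filter. No paired analysis was possible because each group has a single array. Signals under the floor are not ordered, which limits every gene at or near it.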
